A study of Mus musculus with 6 samples.

Results

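The expression of 9 genes of the intermediate filament family was followed in KMWT1, a mouse glioma cell line, after YY1 was lowered by siRNA: Vim, Nes, Gfap, Synm, Nefl and Nefm, whose filaments lie in the cytoplasm, and the lamin genes Lmna, Lmnb1 and Lmnb2, whose filaments line the nucleus. They were taken by symbol from the count tables, which hold 24982 gene symbols each, and all 9 were found. RNA was sequenced from 3 samples that received an siRNA pool against YY1 (samples 4, 5 and 6) and 3 that received a control siRNA (samples 1, 2 and 3), each 48 hours after transfection. All 6 came from this single line, grown in medium with serum, so the values describe 1 line and transient knockdown. Whether each sample was its own culture is not stated in the labels, so the spread behind every p-value may be only technical. Of the 9 genes, 7 had enough counts to be tested, and Gfap and Synm did not.

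Intermediate filaments are rope-like polymers that give cells and nuclei mechanical strength. Which genes a cell uses marks its type: vimentin is typical of mesenchymal and immature neural cells, nestin of neural stem cells, GFAP of mature astrocytes and the neurofilament proteins of neurons. In gliomas, vimentin and nestin are commonly expressed and GFAP varies with differentiation. Lamins form the meshwork under the nuclear envelope; A-type lamins vary with tissue type and B-type lamins are made in nearly all cells. YY1 is a DNA-binding protein of the zinc finger class that acts as an activator at some genes and a repressor at others.

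The libraries held 15738457 to 19210104 counts in genes in YY1 siRNA samples and 18680762 to 20644057 in control siRNA samples. Levels are given as counts per 1000000 counts of the library after TMM scaling (CPM), at which 3 counts equal 0.144 to 0.196 CPM. Yy1 stood at 81.2, 77.6 and 78.6 CPM in YY1 siRNA samples 4, 5 and 6, against 126.9, 128.1 and 126.5 CPM in control siRNA samples 1, 2 and 3, which was 62.3% of the control level (95% interval 56.5% to 68.6%). It was the only one of 12148 genes tested to pass an adjusted p of 0.05 with edgeR (adjusted p 0.00154). A mark of being combined, of unstated meaning, is on 5 of the 6 tables but not on that of YY1 siRNA sample 6, the smallest library. Counts that fell in no gene made up 7.87%, 10.7% and 11.3% in YY1 siRNA samples 4, 5 and 6, against 7.99%, 8.64% and 9.03% in control siRNA samples 1, 2 and 3.

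None of the 7 tested genes passed the test between YY1 siRNA and control siRNA samples. With edgeR's quasi-likelihood test adjusted over all genes, 0 of 7 were called, beside 0.00823% of all genes tested, and DESeq2 called 0 as well, beside 0.152%. Only Lmnb2 had an unadjusted p under 0.05, in the lower direction, beside 10.8% of all genes tested in either direction and 5.46% in the lower one. The median log2 fold change of the 7 was -0.043, and that of all genes tested was 0.00070. The 95% interval of the change lay within 1.5-fold in either direction for all 7 genes. For all but Lmnb2 the interval included 0, so changes inside it could not be told from none with 3 samples per group. The interval of Lmnb2 excluded 0, but it is not adjusted for the number of genes tested. In a bulk sample, fewer expressing cells and less RNA per cell cannot be told apart.

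**Figure D1:**
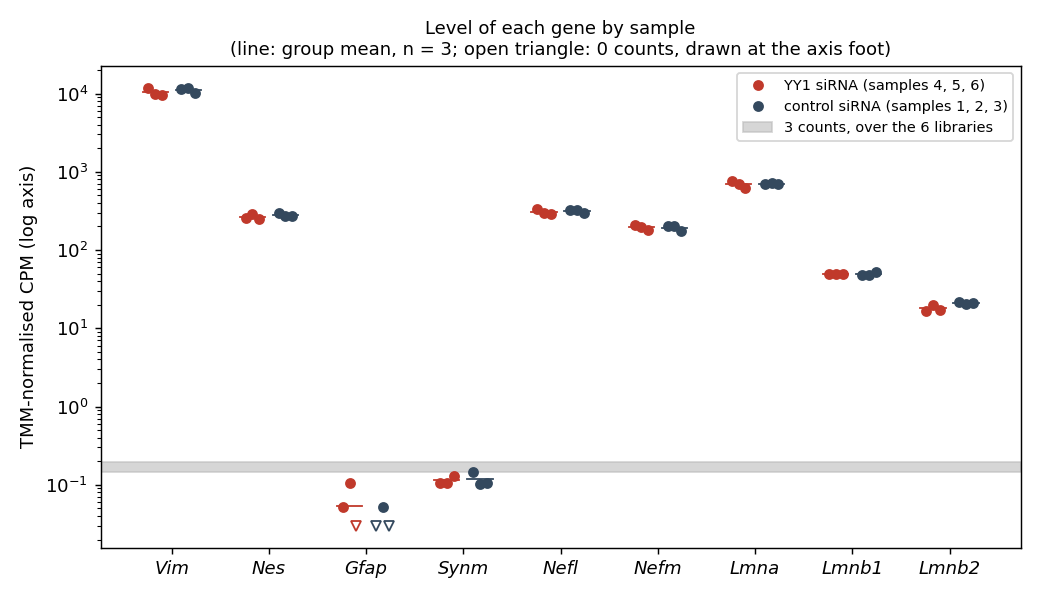
Level of each of the 9 genes in each sample, as TMM-scaled CPM on a log axis, YY1 siRNA samples in red and control siRNA samples in blue; short lines are group means (n = 3) and the grey band is the level that 3 counts give. Vim lies between 9605 and 11901 CPM, Lmnb2 between 16.8 and 21.8 CPM, and Gfap and Synm lie at or below the grey band in both groups.

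Vim had the highest mean CPM of all gene symbols in the tables, a scale not corrected for length. The gene, which encodes vimentin, maps to chromosome 2, bases 13573927 to 13582826, plus strand (mm10, ENSMUSG00000026728.9), and no other annotated gene overlaps it. It stood at 11901, 10001 and 9605 CPM in YY1 siRNA samples 4, 5 and 6, against 11402, 11878 and 10293 CPM in control siRNA samples 1, 2 and 3. The groups overlapped: YY1 siRNA sample 4 was the highest of the 6, and YY1 siRNA samples 5 and 6 were the lowest. Vim alone took 0.935% to 1.18% of all counts in genes in YY1 siRNA samples and 1.04% to 1.19% in control siRNA samples. The fitted level was 93.8% of control (95% interval 78.3% to 112%; edgeR adjusted p 0.785).

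The promoter of Vim, from RefSeq on build GRCm38.p6, is shown because this single gene supplies about 1% of all counts. The stretch is the 100 bases before the start in RefSeq, chr2:13574211-13574310 on the plus strand. The gene span given above, from another annotation (GENCODE), begins earlier, at base 13573927, so the stretch lies inside that span. The capitals mark TATAAA, the letters of the classical TATA box.
Vim: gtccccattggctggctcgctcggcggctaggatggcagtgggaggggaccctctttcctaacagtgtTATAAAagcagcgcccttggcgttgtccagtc
The match runs from base -32 to base -27 relative to the start. TATAAA on either strand occurred in 13.6% of all 32851 promoter windows of 300 bases in the same RefSeq table. Of the 9 genes, 6 had such windows, 8 in all, and Vim's was the only one of the 8 with TATAAA.

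Nes encodes nestin, a large filament protein of neural stem and progenitor cells that needs a partner such as vimentin to assemble. It maps to chromosome 3, bases 87971078 to 87980451, plus strand, with no overlapping gene. Its level was 254.2, 285.5 and 246.4 CPM in YY1 siRNA samples 4, 5 and 6, against 296.9, 268.8 and 272.6 CPM in control siRNA samples 1, 2 and 3. The highest value was in control siRNA sample 1 and the lowest in YY1 siRNA sample 6, with YY1 siRNA sample 5 above 2 of the 3 control siRNA samples. The fitted level was 93.8% of control (95% interval 83.2% to 106%; edgeR adjusted p 0.665).

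Gfap and Synm were close to absent in both groups. Gfap, the filament gene of mature astrocytes, had 1, 2 and 0 counts in YY1 siRNA samples 4, 5 and 6, against 0, 1 and 0 counts in control siRNA samples 1, 2 and 3. Synm encodes synemin, a filament protein that joins vimentin or GFAP polymers and links them to other parts of the cytoskeleton. It had 2 counts in each YY1 siRNA sample, against 3, 2 and 2 counts in control siRNA samples 1, 2 and 3. These counts are at or below the 3 counts taken as the limit of detection, so no fold change is given for either gene. That limit covers counting error only. Gfap maps to chromosome 11, bases 102887336 to 102900912, and Synm to chromosome 7, bases 67730160 to 67759742, both on the minus strand. Exons of Synm overlap those of Ttc23 on the other strand, and without a stated strand setting even these few reads cannot be assigned with certainty.

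Other astrocyte markers were mixed. Of 8 astrocyte markers besides Gfap, 3 reached 10 CPM and 4 averaged under 1 CPM. The water channel gene Aqp4 and the glutamate transporter genes Slc1a2 and Slc1a3 had at most 3 counts in any sample of either group. The gap junction gene Gja1 stood at 650.4, 620.8 and 582.5 CPM in YY1 siRNA samples 4, 5 and 6, against 610.6, 632.6 and 614.5 CPM in control siRNA samples 1, 2 and 3. The summed level of the 8 ranged from 641.4 to 719.7 CPM in YY1 siRNA samples and from 677.4 to 699.7 CPM in control siRNA samples. Most of that sum came from Gja1 alone. Of 6 markers of glioma stem cells or neural progenitors, 3 stood at 10 CPM or more, among them Sox2 and Cd44, and Prom1 and Fabp7 had 0 counts in all samples. Cells of other kinds that use vimentin were also checked. Of 8 fibroblast and pericyte markers, 4 stood at 10 CPM or more, and their sum was 806.7 to 1027 CPM in YY1 siRNA samples and 955.5 to 1116 CPM in control siRNA samples. Not all of the 8 were present: over both groups, Col1a2 had 0 to 4 counts per sample and Lum 0 to 1. Among the 6 tested markers of that list, 2 had an unadjusted p under 0.05, both higher, beside 5.38% of all genes tested. Neither showed overlap between groups, as for 7.36% of all genes tested in that direction. The 2 were Dcn, a matrix proteoglycan gene, and Rgs5, a pericyte gene. Dcn averaged 11.9 ± 0.751 CPM in YY1 siRNA and 9.68 ± 0.759 CPM in control siRNA samples (edgeR unadjusted p 0.0125). Rgs5 averaged 1.94 ± 0.169 CPM in YY1 siRNA and 1.22 ± 0.199 CPM in control siRNA samples (edgeR unadjusted p 0.00866). Those levels of Rgs5 are 27 to 40 counts in YY1 siRNA and 21 to 28 counts in control siRNA samples. Fitted changes in the list were above 0 for 3 tested markers and below 0 for 3. The latter were Col1a1, Col3a1 and Pdgfrb (log2 -0.12, -0.12 and -0.16). The part of these markers in the level of Vim was not tested. The lists for other cells held 6 of 7 microglia and macrophage markers, 4 of 6 endothelial, 4 of 4 epithelial and 5 of 8 oligodendrocyte lineage markers under 1 CPM. Markers at 10 CPM or more in those lists were Cd68, the endothelial genes Flt1 and Cdh5, and Pdgfra and Cspg4 of the oligodendrocyte lineage. Pdgfra, a growth factor receptor gene, averaged 325.6 ± 13.7 CPM in YY1 siRNA and 344.0 ± 28.4 CPM in control siRNA samples (SD, n = 3 each). The oligodendrocyte lineage list, most of it Pdgfra, summed to 344.5 to 381.9 CPM in YY1 siRNA and 350.3 to 405.8 CPM in control siRNA samples. No gene of the 8 marker lists was called.

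Nefl and Nefm, the genes of the light and medium neurofilament subunits, were both well expressed. Nefl stood at 336.1, 295.5 and 289.3 CPM in YY1 siRNA samples 4, 5 and 6, against 324.8, 324.9 and 299.3 CPM in control siRNA samples 1, 2 and 3. The groups overlapped, with YY1 siRNA sample 4 the highest and YY1 siRNA sample 6 the lowest of the 6. The fitted level of Nefl was 97.1% of control (95% interval 86.0% to 110%; edgeR adjusted p 0.856). Nefm stood at 206.9, 198.7 and 180.5 CPM in YY1 siRNA samples 4, 5 and 6, against 204.7, 200.2 and 174.8 CPM in control siRNA samples 1, 2 and 3. Here too YY1 siRNA sample 4 was the highest, but the lowest was control siRNA sample 3. The fitted level of Nefm was 101% of control (95% interval 89.3% to 114%; edgeR adjusted p 0.952).

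The neurofilament partners and most neuronal markers did not accompany these 2 genes. In axons, the light and medium subunits polymerise with the heavy subunit, alpha-internexin or peripherin. The heavy subunit gene Nefh had 0 counts in every YY1 siRNA sample and 1 count in 1 control siRNA sample. The alpha-internexin gene Ina had 0 counts in all 6 samples, and the peripherin gene Prph had at most 2 counts in a sample. Of 8 neuronal markers that exclude the neurofilament genes, 5 stood under 1 CPM and 1 reached 10 CPM. Of the 5 under 1 CPM, the neuronal nuclear antigen gene Rbfox3 had 1 count in all and the migrating neuron gene Dcx had 0. Not all of the 5 were silent: over both groups, Syt1 had 5 to 18 counts per sample and Stmn2 5 to 16. The marker above 10 CPM was Eno2, at 20.1 ± 1.29 CPM in YY1 siRNA and 18.6 ± 2.26 CPM in control siRNA samples. Tubb3 averaged 4.68 CPM in YY1 siRNA and 5.30 CPM in control siRNA samples, and Map2 3.94 and 4.31 CPM. The summed level of the 8 was 28.6 to 30.7 CPM in YY1 siRNA samples and 27.3 to 33.0 CPM in control siRNA samples.

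Nefl and Nefm are neighbours on chromosome 14 and transcribed from opposite strands. Nefl covers bases 68083863 to 68089095 (plus strand) and Nefm bases 68082590 to 68124846 (minus strand). The main Nefm transcript shares 0 exonic bases with Nefl, but a second annotated transcript, Nefm-202, ends across Nefl and shares 1108 of its 3380 exonic bases, or 32.8%. Since no source used here states whether counting used strand, reads from those bases may have been split between the genes or set aside.

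Lmna, from which splicing makes lamins A and C, had the second highest CPM of the 9 genes. It maps to chromosome 3, bases 88480147 to 88509956, minus strand. Its level was 756.9, 688.9 and 629.3 CPM in YY1 siRNA samples 4, 5 and 6, against 704.3, 714.9 and 705.8 CPM in control siRNA samples 1, 2 and 3. The 3 YY1 siRNA samples spanned both sides of the control siRNA samples, which lay close together: the means were 691.7 ± 63.8 CPM in YY1 siRNA and 708.3 ± 5.73 CPM in control siRNA samples (SD, n = 3 each). The fitted level was 97.7% of control (95% interval 85.6% to 111%; edgeR adjusted p 0.901). Counts per gene do not separate lamin A from lamin C.

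Lmnb1, the gene of lamin B1, varied least among the 7 genes. It maps to chromosome 18, bases 56707813 to 56753424, plus strand. Its level was 49.5, 50.1 and 50.1 CPM in YY1 siRNA samples 4, 5 and 6, against 48.6, 47.5 and 52.5 CPM in control siRNA samples 1, 2 and 3. All 3 YY1 siRNA samples lay inside the range of the control siRNA samples. The coefficient of variation over the 6 samples was 3.36%, against 10.4% for Lmnb2, the most variable of the 7. The fitted level was 101% of control (95% interval 90.6% to 112%; edgeR adjusted p 0.966).

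Lmnb2, the gene of lamin B2, had the smallest p-value of the 7 genes but did not pass. It maps to chromosome 10, bases 80901203 to 80918245, minus strand (mm10, ENSMUSG00000062075.13), with no overlapping gene. It had 321, 379 and 265 counts in YY1 siRNA samples 4, 5 and 6, against 453, 395 and 398 counts in control siRNA samples 1, 2 and 3. On the CPM scale these are 16.8, 20.1 and 17.3 CPM in YY1 siRNA samples, against 21.8, 20.5 and 21.1 CPM in control siRNA samples. The 2 ranges did not overlap, YY1 siRNA being the lower one, by a narrow margin at YY1 siRNA sample 5; of all genes tested, 8.91% showed such a gap in the lower direction. The log2 fold change was -0.22 (SE 0.0920, 95% interval -0.42 to -0.023), or 85.7% of control. The unadjusted p was 0.0316, rank 912 among the genes tested, and the adjusted p was 0.420 with edgeR and 0.748 with DESeq2.

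The start of Lmnb2 is shown because it held the only match to the YY1 motif AANATGGCG among the 8 promoter windows of these genes. The stretch is chr10:80918235-80918334 on the minus strand of GRCm38.p6 (RefSeq), from base -89 to base 11 relative to the annotated start, and the capitals mark the match.
Lmnb2: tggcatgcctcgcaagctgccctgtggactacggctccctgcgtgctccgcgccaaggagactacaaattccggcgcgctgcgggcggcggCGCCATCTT
The match lies on the opposite strand, from base 3 to base 11. Searched on both strands, AANATGGCG occurred in 2.38% of all 32851 promoter windows. The shorter AANATGG, which is contained in it, occurred in 16.1% of windows, and among these 8 in that of Lmnb2, at the same place, and in the second of the 2 windows of Lmna, from base -129 to base -123. A match describes the letters of the window and shows neither binding nor an effect on the gene. The windows of Vim, Nes, Gfap and Synm, the first of Lmna and the second of Lmnb2 held neither form, and Nefl, Nefm and Lmnb1 were not searched.

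**Figure D2:**
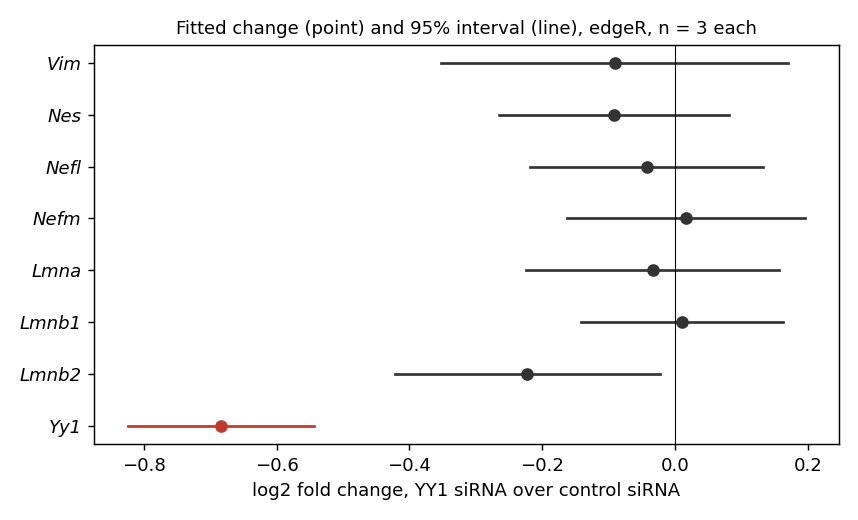
Fitted log2 fold change of YY1 siRNA over control siRNA samples (point) with its 95% interval (line) for the 7 tested genes and for Yy1, edgeR, n = 3 each. The intervals of 6 genes cross 0, that of Lmnb2 runs from -0.42 to -0.023, and that of Yy1 (red) from -0.82 to -0.54.

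Levels of different genes can be compared only per length. Divided by the exon length of the principal transcript in GENCODE M21, the order from high to low was Vim, Lmna, Nefl, Nefm, Nes, Lmnb1 and Lmnb2, with Gfap and Synm last. Over the 6 samples, CPM per kilobase ranged from 4380 to 5427 for Vim and from 199.4 to 239.8 for Lmna. It ranged from 85.6 to 99.4 for Nefl, from 52.4 to 62.0 for Nefm and from 40.2 to 48.5 for Nes. It ranged from 16.7 to 18.5 for Lmnb1 and from 5.00 to 6.47 for Lmnb2. No 2 neighbours among these 7 overlapped, while Gfap and Synm, each at or below 0.0401, did. With the length of all annotated exons in place of the principal transcript, a choice made after the data were seen, Nes (38.4 to 46.3) stood above Nefm (30.2 to 35.8) and the rest of the order was as before.

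The A-type lamin gene outweighed the B-type lamin genes in every sample. Per length of the principal transcript, the level of Lmna divided by the summed level of Lmnb1 and Lmnb2 was 10.7, 9.26 and 8.77 in YY1 siRNA samples 4, 5 and 6, against 9.47, 9.93 and 9.05 in control siRNA samples 1, 2 and 3. The groups overlapped, with YY1 siRNA samples at both ends. With the length of all exons the ratio was 5.15 to 6.28 in YY1 siRNA and 5.34 to 5.88 in control siRNA samples. The level of Lmnb1 divided by that of Lmnb2 was 3.49, 2.95 and 3.43 in YY1 siRNA samples and 2.64, 2.75 and 2.95 in control siRNA samples, with YY1 siRNA sample 5 and control siRNA sample 3 equal after rounding. With the length of all exons it was 3.60 to 4.26 in YY1 siRNA and 3.23 to 3.61 in control siRNA samples. That change of length multiplies all 6 values by the same factor, so it is no separate comparison of the groups. YY1 siRNA sample 5 (3.60) lay just below control siRNA sample 3 (3.61), so the groups overlapped narrowly. The level of Nefl divided by that of Nefm, per length of the principal transcript, was 1.47 to 1.60 in YY1 siRNA and 1.56 to 1.69 in control siRNA samples, and that of Vim divided by that of Nes was 97.8 to 131 in YY1 siRNA and 105 to 123 in control siRNA samples, so both pairs of ranges overlapped.

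**Figure D3:**
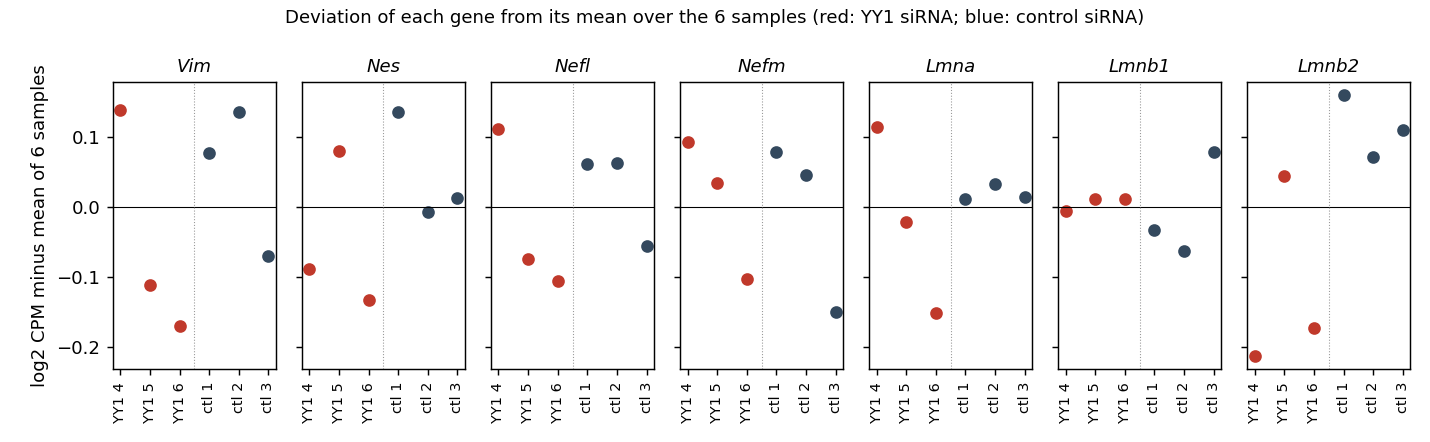
Deviation of each tested gene from its mean over the 6 samples, in log2 CPM, by sample, YY1 siRNA samples (red) left of control siRNA samples (blue). Vim, Nefl, Nefm and Lmna are highest in YY1 siRNA sample 4, Vim, Nes, Nefl and Lmna are lowest in YY1 siRNA sample 6, and Lmnb2 is lowest in YY1 siRNA sample 4.

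For Vim, Nefl and Lmna, the YY1 siRNA samples held both the highest and the lowest of the 6 values, whereas for Lmnb1 they lay close together. Vim, Nefl, Nefm and Lmna were highest in YY1 siRNA sample 4, and Vim, Nes, Nefl and Lmna were lowest in YY1 siRNA sample 6. Vim and Nefl had the most similar profiles (Pearson's r 0.982 over the 6 samples, from log2 CPM), followed by Nes and Lmnb2 (0.872). Nefm and Lmnb1 were the least alike (-0.762). Each r describes the same 6 libraries and includes any difference between the groups.

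The genes that most resembled Vim over the 6 samples were searched among 8890 genes with a mean of at least 10 CPM. They were Eif4h, a translation initiation factor gene (r 0.998), Lsm14b, an RNA-binding protein gene (0.997), and Cx3cl1, the fractalkine gene (0.993). Like Vim, all 3 were lowest in YY1 siRNA sample 6. For Lmnb2 they were Arid4a (0.994), Elmsan1 (0.993) and Nop2 (0.992), of which Arid4a encodes a chromatin-associated protein and Nop2 a ribosomal RNA methyltransferase. Nop2 stood at 20.6, 25.1 and 21.4 CPM in YY1 siRNA samples 4, 5 and 6, against 26.9, 25.3 and 25.2 CPM in control siRNA samples 1, 2 and 3. These are the highest of 8890 values over only 6 samples and are given as a description.

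The share of counts in no gene moved with several of these levels. The 3 libraries with the smallest shares, YY1 siRNA sample 4 and control siRNA samples 1 and 2, had the 3 highest levels of Vim and of Nefl, and YY1 siRNA samples 5 and 6, with the largest shares, had the lowest levels of both. Lmna was also lowest in YY1 siRNA samples 5 and 6. With the share as a covariate, the log2 fold changes were 0.031 for Vim, 0.048 for Nefl and 0.049 for Lmna, against -0.092, -0.043 and -0.034 without it. Lmnb2 did not follow that order, being lowest in YY1 siRNA sample 4, and its log2 fold change was -0.27 with the covariate (edgeR adjusted p 0.587). None of these passed in either fit, and the part of the share in these levels was not tested beyond that fit.

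**Figure D4:**
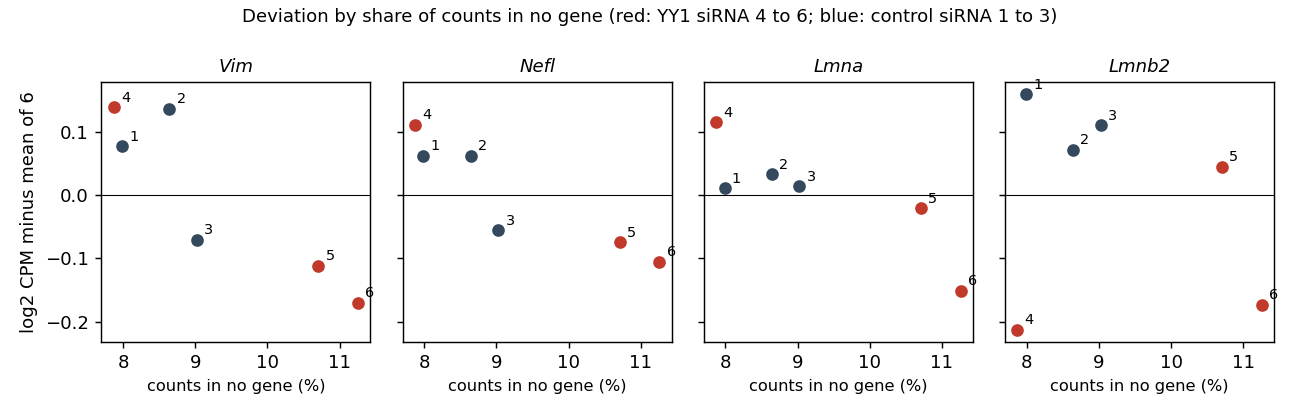
Deviation of Vim, Nefl, Lmna and Lmnb2 from their means over the 6 samples (log2 CPM) against the percent of a library's counts assigned to no gene, each point numbered by sample, YY1 siRNA in red and control siRNA in blue. YY1 siRNA samples 5 and 6, at 10.7% and 11.3%, lie lowest for Vim, Nefl and Lmna, whereas Lmnb2 is lowest in YY1 siRNA sample 4, at 7.87%.

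Genes that build, anchor or modify these filaments were read from 5 lists with 68 genes, of which 52 were tested. None passed over all genes with edgeR or with DESeq2. An unadjusted p under 0.05 was found for 5, or 9.62% of those tested beside 10.8% of all genes tested; 3 were higher, beside 5.38% of all genes tested, and 2 lower, beside 5.46%.

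Other cytoplasmic filament genes were mostly silent: of 18, 13 stood under 1 CPM and 6 were tested, with a median log2 fold change of -0.16. The epithelial keratin genes Krt5, Krt14, Krt17 and Krt18 had at most 2 counts in a sample, as had the lens filament gene Bfsp2. Other keratin genes were detected at low levels. Krt15 averaged 1.59 CPM in YY1 siRNA and 1.99 CPM in control siRNA samples, and Krt19 1.17 and 1.09 CPM. Krt8 had 4 to 7 counts per sample in both groups. Highest by CPM, which is not corrected for length, were Krt20, an intestinal and bladder keratin (13.2, 11.3 and 10.3 CPM in YY1 siRNA samples 4, 5 and 6, against 13.9, 12.7 and 10.95 CPM in control siRNA samples 1, 2 and 3), Krt10, a keratin of differentiating epidermis, and Krt80. Krt10 averaged 8.71 ± 1.61 CPM in YY1 siRNA and 7.50 ± 1.07 CPM in control siRNA samples (SD, n = 3 each). Bfsp1, the gene of the lens protein filensin, was the only one with an unadjusted p under 0.05 (0.0206, edgeR adjusted p 0.386), at 0.472, 0.319 and 0.522 CPM in YY1 siRNA samples 4, 5 and 6, against 0.721, 0.986 and 0.741 CPM in control siRNA samples 1, 2 and 3. Those levels are 6 to 9 counts in YY1 siRNA and 14 to 19 counts in control siRNA samples.

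Genes of the inner nuclear membrane and of the LINC complex, which joins the lamina to the cytoskeleton, were nearly all expressed. Of 18, 16 stood at 10 CPM or more, 17 were tested and 0 had an unadjusted p under 0.05 (median log2 fold change 0.032). Highest by CPM, uncorrected for length, was Matr3, a nuclear matrix protein gene listed with these though its protein is not of the membrane. Next were Tmpo, which encodes lamina-associated polypeptide 2, and Sun1, an inner membrane component of the LINC complex. Tmpo averaged 230.4 ± 4.44 CPM in YY1 siRNA and 223.4 ± 9.22 CPM in control siRNA samples. The smallest p-values were those of Tor1aip1, which encodes a lamina-associated activator of torsin ATPases (65.1 ± 3.54 CPM in YY1 siRNA and 73.8 ± 7.61 CPM in control siRNA samples, edgeR adjusted p 0.463), and Tor1a, a torsin gene (35.0 ± 2.87 CPM in YY1 siRNA and 30.9 ± 1.42 CPM in control siRNA samples, edgeR adjusted p 0.468).

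Genes that process the farnesylated tails of lamins, which B-type lamins keep and mature lamin A loses, were all expressed at 10 CPM or more. The 6 had fitted changes below 0, from log2 -0.14 for Fntb to -0.024 for Narf. Their median was -0.075, beside 0.0007 over all genes tested. Of the 6, 0 had an unadjusted p under 0.05, and their shared direction was not tested. Icmt, the methyltransferase of the tail, averaged 150.8 ± 5.43 CPM in YY1 siRNA and 155.6 ± 9.52 CPM in control siRNA samples. Zmpste24, the protease that cleaves prelamin A, averaged 67.7 ± 3.04 CPM in YY1 siRNA and 70.3 ± 0.848 CPM in control siRNA samples. Narf, whose protein binds prelamin A, averaged 51.0 ± 1.92 CPM in YY1 siRNA and 51.9 ± 2.57 CPM in control siRNA samples. Fntb and Fnta, the subunits of farnesyltransferase, had the smallest p-values (edgeR adjusted p 0.569 and 0.614).

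Plakins, desmosomal linkers and chaperones gave 12 tested genes of 15, with a median log2 fold change of -0.043. Highest by CPM, uncorrected for length, were Pkp1, a desmosomal plaque gene, and the giant linker genes Plec and Dst, which tie filaments to other structures. Pkp1 stood at 785.1, 756.2 and 617.5 CPM in YY1 siRNA samples 4, 5 and 6, against 868.9, 829.6 and 721.8 CPM in control siRNA samples 1, 2 and 3. Ppl, the periplakin gene, stood at 24.3, 30.1 and 24.0 CPM in YY1 siRNA samples 4, 5 and 6, against 38.3, 30.2 and 29.4 CPM in control siRNA samples 1, 2 and 3 (unadjusted p 0.0230, edgeR adjusted p 0.394), and its groups overlapped.

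Kinases that phosphorylate intermediate filaments were all tested, 11 of 11, with a median log2 fold change of 0.011. Rock2, Pak1 and Rock1, kinases that act on vimentin downstream of small GTPases, had the highest CPM, again uncorrected for length. Rock2 averaged 344.4 ± 16.8 CPM in YY1 siRNA and 344.9 ± 13.6 CPM in control siRNA samples. Cdk5, a kinase of neurofilaments and nestin, stood at 50.2, 51.8 and 58.2 CPM in YY1 siRNA samples 4, 5 and 6, against 45.1, 45.2 and 43.8 CPM in control siRNA samples 1, 2 and 3 (unadjusted p 0.00530, edgeR adjusted p 0.267). Its groups did not overlap, as for 7.36% of all genes tested in that direction. Cdk1, the mitotic kinase that loosens vimentin filaments and the lamina, stood at 111.3, 98.2 and 113.9 CPM in YY1 siRNA samples, against 77.2, 88.5 and 105.0 CPM in control siRNA samples, and the groups overlapped (unadjusted p 0.0343, edgeR adjusted p 0.423).

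**Figure D5:**
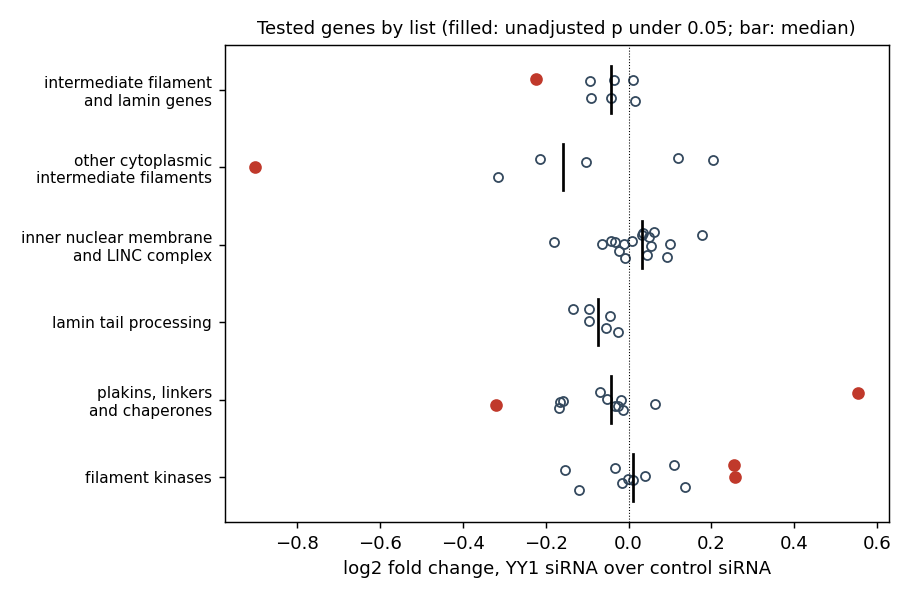
Log2 fold change of YY1 siRNA over control siRNA samples for the tested genes of the intermediate filament and lamin set and of 5 partner lists, 1 point per gene, filled where the unadjusted p was under 0.05, with a bar at each median. Lmnb2 is the filled point of the first row, and Bfsp1, Ppl, Cdk5 and Cdk1 are among the filled points of the other rows.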

How the data were processed

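RNA-seq read counts were analysed for 6 samples of 1 cell line. For each sample the authors deposited a table of raw read counts by gene symbol, all whole numbers, with unequal totals. The submitters' processing notes list the aligner STAR (2.6.1a), the package edgeR (3.30.0) and build mm10. The counting program, its annotation and its strand setting were not given in the sources used here. Of the rows, 2 per sample name no gene (7.87% to 11.3% and 1.01% to 1.15% of counts) and entered neither library sizes nor tests.

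Counts were tested with edgeR 4.0.16 (R 4.3.3), quasi-likelihood F test, two-sided, robust, with filterByExpr and TMM, fitted on all genes and adjusted by Benjamini and Hochberg. Intervals of changes come from that fit. The sample labels name no pairs between the groups, so nothing was paired. The steps were tested on simulated counts. Gene models came from GENCODE M21 (mm10) and promoters from RefSeq (GRCm38.p6). Alternatives were other normalizations and filters, thinned counts, DESeq2 1.42.0, limma-voom (limma 3.58.1), a covariate and each sample left out.

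The genes and partner lists were chosen with earlier results of these data known. Named genes are all members, Yy1, and per list the 3 with the highest mean CPM and the 2 with the smallest p; for likeness, 3 genes each for Vim and the member with the smallest p. Cell type markers and genes named as silent were picked from the lists after their values were seen. Results of some genes the rule names are not reported here.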

Additional observations from a re-analysis of the deposited data

Results flagged for a closer look

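Counts that fell in no gene stand outside the comparison. They made up 10.7% of the library of YY1 siRNA sample 5 and 11.3% of that of YY1 siRNA sample 6, against at most 9.03% in the control siRNA samples. YY1 siRNA sample 4 had 7.87%, below all control siRNA samples. Vim, Nefl and Lmna were at their lowest in YY1 siRNA samples 5 and 6. The covariate fit turned the sign of these 3 fitted changes, none of which passed.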

How the results depend on the processing

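The count of intermediate filament and lamin genes called was 0 under each of 10 alternative settings and without each of the 6 samples in turn, and so was the count over the 5 partner lists. Lmnb2 kept a fold change below 0 throughout (log2 -0.27 to -0.16 over the settings, -0.31 to -0.16 with a sample left out; lowest adjusted p 0.345), as did Nes (-0.11 to -0.044, and -0.16 to -0.047). The unadjusted p of Lmnb2 did not stay under 0.05. It was 0.0835 with DESeq2 and 0.0843 with limma-voom with sample weights, and under 0.05 in the other settings. With a sample left out, edgeR gave 0.00719 without YY1 siRNA sample 5. Without any other sample it was above 0.05, up to 0.109. Of 112 refits of the 7 genes, 101 kept their direction and 11 turned it. A covariate for the no-gene share gave a log2 fold change of 0.031 for Vim, 0.048 for Nefl, 0.049 for Lmna and -0.0063 for Lmnb1. With library size alone it was -0.0049 for Nefm and -0.012 for Lmnb1, where the median of all genes also moved by -0.021. Left-out samples gave -0.052 to 0.063 for Nefm, turned without control siRNA sample 3 (-0.052) and YY1 siRNA sample 4 (-0.021). They gave -0.098 to 0.023 for Lmna, turned without YY1 siRNA sample 6, and -0.019 to 0.053 for Lmnb1, turned without control siRNA sample 1 (-0.0042) or 2 (-0.019). Vim ranged from -0.18 to -0.037. For each of these, the cause was not tested.

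Over all genes, 1 was called, Yy1, with edgeR, while library size alone gave 7, DESeq2 19, limma-voom with sample weights 22 and no filter on low counts 83. With a sample left out the count was 1 to 41, with 41 when YY1 siRNA sample 4 was left out, 3 for YY1 siRNA sample 6 and 2 for control siRNA sample 3. Yy1 passed in each. No paired analysis was made, because the labels do not state whether samples of the 2 groups were paired. Depth limits Gfap and Synm, at 0 to 3 counts per library, and Lmnb2, at 265 to 453 counts.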

Other observations

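Among the 52 tested partner genes, 6 were lowest in YY1 siRNA sample 4 and highest in YY1 siRNA sample 5: Dst, Syne1, Macf1, Syne2, Plec and Rock2. They include the 4 genes with the longest exon sequence of the 52, which are Dst (41155 bases), Syne1 (40491), Macf1 (31402) and Syne2 (26726). The proteins of these 4 are giant linkers that run between filaments, actin, microtubules and the nuclear membrane. Dst stood at 217.0, 379.8 and 325.6 CPM in YY1 siRNA samples 4, 5 and 6, against 286.5, 297.5 and 297.6 CPM in control siRNA samples 1, 2 and 3. Syne1, which encodes nesprin 1, stood at 110.0, 164.8 and 138.0 CPM in YY1 siRNA samples, against 135.1, 136.1 and 126.4 CPM in control siRNA samples. Plec stood at 325.4, 525.0 and 439.0 CPM in YY1 siRNA samples, against 455.0, 424.3 and 457.8 CPM in control siRNA samples. The control siRNA samples lay between the extremes of the YY1 siRNA samples in each of these 3 genes. The pattern was noticed after the values were seen, it has no test, and the part of transcript length in it was not tested. How many of all genes tested share this order of samples was not counted. The pattern is therefore not shown to be particular to these genes.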
